A study of Mus musculus with 20 samples.

Results

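The genes described here are 10 members of the immediate-early response: the AP-1 subunits Fos, Fosb, Jun, Junb and Jund, the zinc finger transcription factors Egr1, Egr2 and Egr3, the response gene Ier2 and the nuclear receptor Nr4a1. They were given as a list of symbols and matched to Ensembl identifiers of the count table, which holds 37620 genes. All 10 were found, and all 10 passed the filter on low counts that left 17824 genes for testing. Messenger RNA was sequenced from mouse cells of C57BL/6 background that had been enriched with magnetic beads for B220, a form of the CD45 surface protein carried by B cells. The groups were normal spleen (n = 4), VavPBcl2/vector lymphoma (n = 8) and VavPBcl2/Myc lymphoma (n = 8). VavPBcl2 is a transgene that expresses Bcl2, an inhibitor of apoptosis, in blood cells, and both lymphoma groups carry it. The vector lymphomas were transduced with an empty vector and the Myc lymphomas with Myc, a transcription factor that drives growth and division. The labels do not say whether the samples of a group came from separate mice, how old the mice were or which promoter drives Myc, so each p-value refers to sample-to-sample spread, which may be technical. Cells were taken directly from the mouse with no culture, and the series text gives the comparison of expression between these groups as its purpose.

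Immediate-early genes are transcribed within minutes of a stimulus such as a growth factor or antigen receptor engagement, from transcription factors that are already present in the cell. Fos and Jun proteins pair through leucine zippers to form AP-1, a dimer that binds a short palindromic DNA site, and Egr proteins bind GC-rich sites through zinc fingers. In B cells, engagement of the antigen receptor activates the ERK kinase cascade, which acts on serum response factor and its partners at the promoters of Fos and Egr genes. Their messengers are short-lived, and they are also known to be induced by tissue handling and cell dissociation.

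Each library held 28.7 to 56.3 M counts assigned to genes (M, 1000000), and levels below are in CPM, counts per M counts of the scaled library. Myc itself stood at 179 to 343 CPM in normal cells, 48.3 to 226 CPM in vector lymphomas and 313 to 1646 CPM in Myc lymphomas. Myc lymphoma replicate 5 was the lowest of its group and lay below the highest normal sample. Run numbers in the labels, read separately for each of 4 instruments, were used to split the samples into earlier and later runs. The labels give no dates, so these sets are a reading of the numbers. The 7 later samples were normal replicate 1 and vector replicates 1 to 6. The 13 earlier samples were normal replicates 2 to 4, vector replicates 7 and 8, and all 8 Myc lymphomas, so run and group overlap. The 10 B cell markers summed to 6902 to 8158 CPM in normal cells, 6543 to 10302 CPM in vector lymphomas and 1833 to 5849 CPM in Myc lymphomas.

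Promoter windows of 250 bases before the transcription start were taken for 7 of the 10 genes from the RefSeq promoter table (GRCm38.p6), 11 windows in all. No window of Egr1, Egr3 or Ier2 was among them. Any window of the 10 genes on the chromosome that carries Egr1 was left out, so the promoter of Egr1 was not examined. The shares over all windows given below kept that chromosome. Both strands were searched for a cyclic AMP response element (TGACGTCA), an AP-1 site (TGANTCA), the CArG box that serum response factor binds, an Egr site (GCGTGGGCG), an E-box (CACGTG, the site of Myc dimers), an Ets site (CCGGAAGT) and a TATA box (TATAAA). The 120 bases before the start are shown for 4 genes of the set. They are an AP-1 subunit of each kind and Egr2, the only Egr gene searched. Capitals mark a match to a searched motif, and lower case marks all other bases. The windows are Fos on the plus strand at chr12:85473770-85473889, Jun on the minus strand at chr4:95052223-95052342, Junb on the minus strand at chr8:84978749-84978868 and Egr2 on the plus strand at chr10:67537749-67537868.
Fos: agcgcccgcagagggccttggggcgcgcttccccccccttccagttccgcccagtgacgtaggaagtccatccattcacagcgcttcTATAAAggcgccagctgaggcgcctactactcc
Jun: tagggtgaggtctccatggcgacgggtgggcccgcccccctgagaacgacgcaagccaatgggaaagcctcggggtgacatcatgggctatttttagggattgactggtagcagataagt
Junb: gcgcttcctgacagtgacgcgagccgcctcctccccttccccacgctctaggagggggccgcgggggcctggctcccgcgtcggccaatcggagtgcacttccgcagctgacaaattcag
Egr2: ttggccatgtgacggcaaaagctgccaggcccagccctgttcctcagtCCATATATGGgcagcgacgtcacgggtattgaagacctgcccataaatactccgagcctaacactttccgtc

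The Fos window held a TATA box 33 to 28 bases before the start, a motif found in 12.4% of the 32851 windows of the same length. The Egr2 window shown held a CArG box 72 to 63 bases before the start, a motif found in 1.47% of all windows. A CArG box also lay in the other Egr2 windows with starts nearby, and an E-box, found in 6.02% of all windows, lay in the Egr2 window of a start further upstream. The searched letters had no match in the windows of Fosb, Jun, Junb, Jund and Nr4a1. The other motifs were found in 6.75% (AP-1 site), 2.88% (Ets site), 1.55% (cyclic AMP response element) and 0.536% (Egr site) of all windows. A match describes these letters only.

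All 10 genes were lower in Myc lymphomas than in vector lymphomas. The 10 of 10 called lower by edgeR's quasi-likelihood test compare with 21.9% of all genes tested that were called lower in this comparison (3907 of 17824). Their median log2 fold change was -2.50, from -3.82 for Egr1 to -1.50 for Ier2, and the median over all genes tested was 0.08. In these bulk samples, fewer cells of a type and less RNA per cell cannot be told apart.

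**Figure D1:**
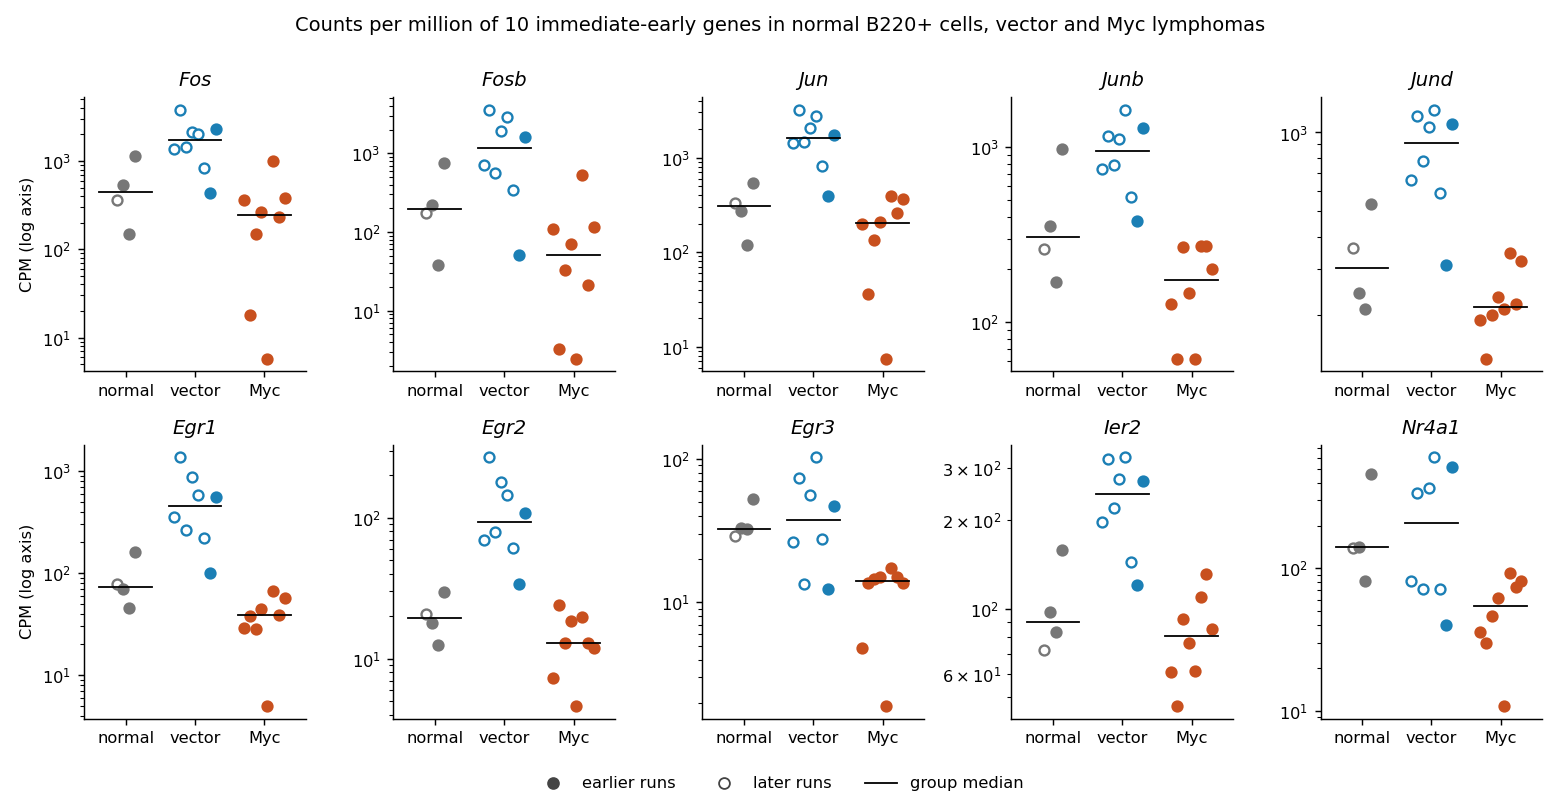
CPM of each of the 10 genes (log axis) in every sample by group, with filled circles for the earlier runs, open circles for the later runs and a bar at the group median. Medians are highest in the vector lymphomas for every gene, and vector replicate 7, the lower filled circle of that group, is the lowest vector sample in all 10 panels.

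Fos, which pairs with Jun proteins to form the classical AP-1 dimer, stood at 362, 529, 149.6 and 1152 CPM in normal replicates 1 to 4. The vector lymphomas ran from 429.6 through a median of 1720.0 to 3815 CPM, and the Myc lymphomas from 5.76 through 245 to 991 CPM. In 7 of 8 Myc lymphomas Fos was below every vector lymphoma, and replicate 6 was the exception. The log2 fold change of Myc against vector was -2.58 ± 0.69 (SE), a 5.97-fold lower level with an adjusted p of 0.00464 by edgeR's quasi-likelihood test. The spread within groups was wide: the highest Myc lymphoma held 172 times the level of the lowest, and the highest vector lymphoma 8.88 times.

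Fosb, a Fos relative with the same leucine zipper, spread furthest of the 10 genes within both lymphoma groups. It stood at 172, 221, 38.4 and 752 CPM in the 4 normal samples, from 51.6 through 1157 to 3597 CPM in vector lymphomas and from 2.45 through 51.4 to 534 CPM in Myc lymphomas. Only 4 of 8 Myc lymphomas lay below every vector lymphoma, since vector replicate 7 was near the Myc median. Its log2 fold change in Myc against vector was -3.72 ± 0.97, with an adjusted p of 0.00375 by edgeR. Among the vector lymphomas, Fosb relative to Fos was lowest in replicate 7 (log2 ratio of CPM per kilobase of exon -4.47, against a vector median of -2.14).

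Jun, the founding Jun family member, stood at 334, 274, 119 and 539 CPM in the 4 normal samples. It ran from 394 through 1598 to 3209.9 CPM in vector lymphomas and from 7.49 through 205.02 to 396 CPM in Myc lymphomas. The groups met at their edges: Myc replicate 6, at 396 CPM, was level with vector replicate 7, at 394 CPM. The log2 fold change was -3.10 ± 0.58, an 8.59-fold lower level with an adjusted p of 2.42e-04 by edgeR.

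Junb, whose AP-1 dimers are weaker activators than those of Jun, stood at 261, 353, 170.3 and 972 CPM in the 4 normal samples. Its range was 376 through 946 to 1631 CPM in vector lymphomas and 61.9 through 174 to 272 CPM in Myc lymphomas. Every Myc lymphoma lay below every vector lymphoma. That was so for 3 of the 10 genes (Junb, Egr1 and Egr2) and for 6.38% of all genes tested. Fitted against vector lymphomas, its log2 fold change was -2.43 ± 0.41, with an adjusted p of 7.63e-05 by edgeR.

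Jund, the Jun member known for steady expression in resting cells, varied least among the AP-1 genes in the Myc lymphomas. It stood at 362, 244, 211 and 533 CPM in the 4 normal samples, from 312 through 915 to 1223 CPM in vector lymphomas and from 137 through 216 to 346 CPM in Myc lymphomas. Of the Myc lymphomas, 6 lay below every vector lymphoma. Its log2 fold change in Myc against vector was -1.88 ± 0.27, a 3.67-fold lower level with an adjusted p of 1.63e-05 by edgeR. The log2 ratio of Jund to Jun, as CPM per kilobase of exon, was 0.77 to 1.76 in normal cells, -0.54 to 0.60 in vector lymphomas and 0.71 to 5.76 in Myc lymphomas. By this ratio the vector lymphomas did not overlap either other group. It was picked from several ratios between relatives after their values were seen. By each of the others the vector and Myc ranges overlapped, for example Jund to Junb (0.048 to 0.655 in vector and 0.046 to 2.234 in Myc lymphomas).

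Egr1, a target of ERK signalling through serum response factor, stood at 77.5, 69.95, 45.5 and 161 CPM in the 4 normal samples. It ran from 99.2 through 459 to 1375 CPM in vector lymphomas and from 4.95 through 38.4 to 67.2 CPM in Myc lymphomas. The lymphoma groups did not overlap. The log2 fold change was -3.82 ± 0.51, a 14.1-fold lower level and the largest difference of the 10 genes, with an adjusted p of 6.84e-06 by edgeR.

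Egr2, known in T cells for restraining activation, stood at 20.8, 17.9, 12.5 and 29.6 CPM in the 4 normal samples. It ran from 33.9 through 93.3 to 269.9 CPM in vector lymphomas and from 4.60 through 12.9 to 24.2 CPM in Myc lymphomas. Every vector lymphoma was above every normal sample and every Myc lymphoma. The log2 fold change of Myc against vector was -3.07 ± 0.39, with the smallest adjusted p of the 10 genes, 3.93e-06 by edgeR.

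Egr3, a close relative of Egr2, stood apart from its relatives in normal cells, where it was at 29.0, 32.8, 32.4 and 52.9 CPM. It ran from 12.4 through 37.4 to 103 CPM in vector lymphomas and from 1.89 through 14.1 to 17.3 CPM in Myc lymphomas. The vector range enclosed the normal range, and 2 Myc lymphomas lay below every vector lymphoma. The log2 fold change of Myc against vector was -1.91 ± 0.43, with an adjusted p of 0.00127 by edgeR. The log2 ratio of Egr3 to Egr2, as CPM per kilobase of exon, was 0.11 to 1.00 in normal cells, -2.92 to -0.87 in vector lymphomas and -1.66 to -0.15 in Myc lymphomas. Per kilobase, Egr3 thus exceeded Egr2 in 4 of 4 normal samples and was below it in all 16 lymphomas. The exon lengths used were 4406 bases for Egr3 and 3398 for Egr2. In CPM, without these lengths, Egr3 was still above Egr2 in every normal sample and below it in every vector lymphoma. It was above Egr2 in Myc replicates 3, 7 and 8, so the sign in those samples depends on the lengths used.

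Ier2, a nuclear protein of the early response, stood at 72.3, 97.4, 83.2 and 158 CPM in the 4 normal samples. It ran from 120.1 through 246 to 328 CPM in vector lymphomas and from 46.7 through 80.99 to 131 CPM in Myc lymphomas. Myc replicate 7 was the sample that overlapped the vector range. Fitted against vector lymphomas, its log2 fold change was -1.50 ± 0.24, the smallest of the 10 genes, with an adjusted p of 5.68e-05 by edgeR.

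Nr4a1, an orphan nuclear receptor whose transcription follows antigen receptor signalling in lymphocytes, stood at 140.0, 142, 81.5 and 458 CPM in the 4 normal samples. It ran from 40.1 through 209 to 605 CPM in vector lymphomas and from 10.8 through 54.3 to 92.7 CPM in Myc lymphomas. The vector lymphomas fell into a lower set of 4 samples at 40.1 to 81.5 CPM and an upper set of 4 at 337 to 605 CPM. Its log2 fold change was -2.27 ± 0.56, with an adjusted p of 0.00248 by edgeR, and 3 Myc lymphomas lay below every vector lymphoma.

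**Figure D2:**
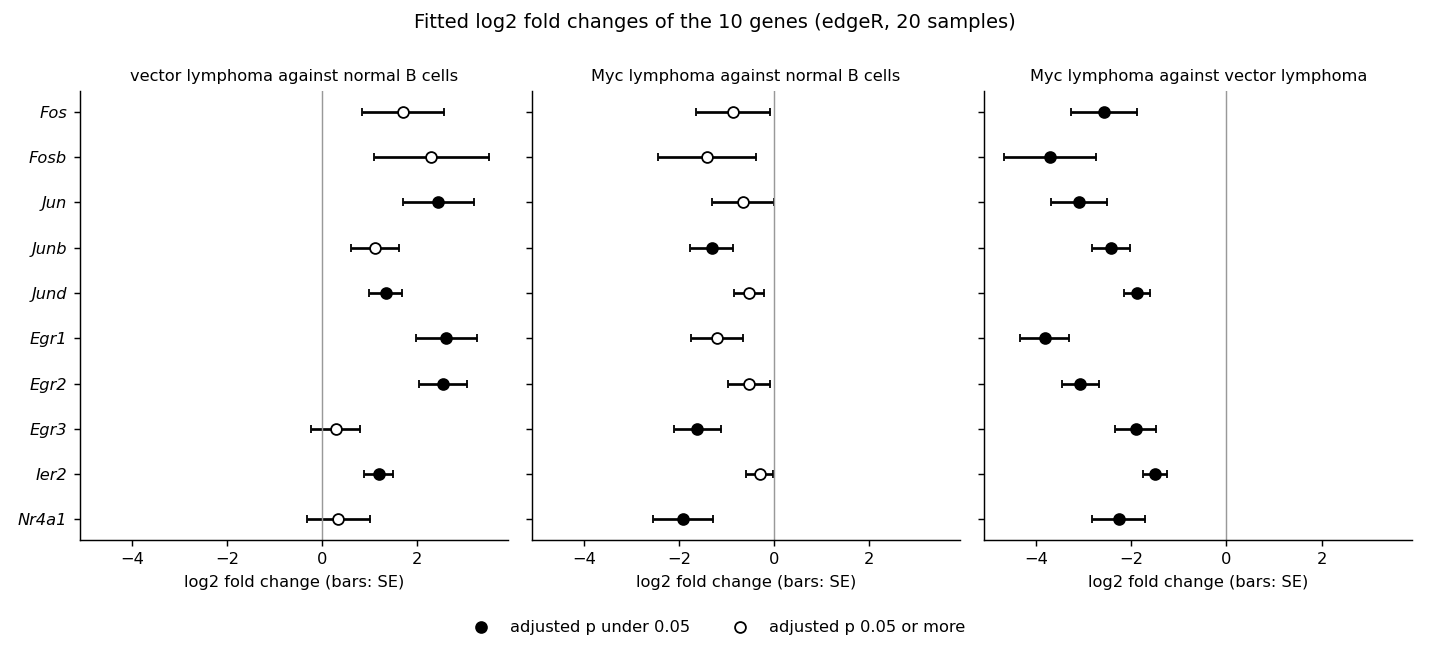
Fitted log2 fold changes of the 10 genes in the 3 comparisons (points, with SE as bars; filled where the adjusted p is under 0.05). All 10 points are filled and below 0 for Myc against vector lymphoma, 5 are filled above 0 for vector lymphoma against normal, and 3 are filled below 0 for Myc lymphoma against normal.

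Against normal B220+ cells, 5 of the 10 genes were higher in vector lymphomas, where 7.46% of all genes tested were called higher. The AP-1 subunits among them were Jun (log2 fold change 2.45 ± 0.75, adjusted p = 0.0374 by edgeR) and Jund (1.34 ± 0.34, adjusted p = 0.0144). The others were Egr1 (2.62 ± 0.64, adjusted p = 0.0114), Egr2 (2.55 ± 0.51, adjusted p = 0.00262) and Ier2 (1.19 ± 0.31, adjusted p = 0.0153). Of the 10, Egr2 was the gene with no overlap between these groups, which 7.33% of all genes tested showed in that direction. Fos (1.70 ± 0.87, adjusted p = 0.238), Fosb (2.30 ± 1.20, adjusted p = 0.249) and Junb (1.11 ± 0.50, adjusted p = 0.168) did not pass, with the wide normal range beside them. Egr3 (0.29 ± 0.52, adjusted p = 0.774) and Nr4a1 (0.35 ± 0.66, adjusted p = 0.793) did not pass either. The count depended on individual normal libraries. It was 3 without normal replicate 1 (Jun and Ier2 lost; 4.91% of all genes called higher) and 3 without replicate 2 (Jun and Jund lost; 6.06%). It was 2 without replicate 3 (Jun, Jund and Ier2 lost; 4.41%). Jun, whose adjusted p was 0.0374 by edgeR, was also lost without normal replicate 4 (where Junb was gained) and without any 1 of vector replicates 2 to 5.

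In Myc lymphomas against normal cells, 3 of the 10 genes were lower, where 17.9% of all genes tested were called lower. These were Junb (log2 fold change -1.32 ± 0.46, adjusted p = 0.0268 by edgeR), Egr3 (-1.62 ± 0.49, adjusted p = 0.0135) and Nr4a1 (-1.92 ± 0.63, adjusted p = 0.0201). Egr3 lay below every normal sample in all 8 Myc lymphomas, which 14.3% of all genes tested showed. The other 7 genes were between -1.41 ± 1.03 (Fosb, adjusted p = 0.279) and -0.31 ± 0.29 (Ier2, adjusted p = 0.407). None of these calls held without normal replicate 4, where edgeR called 0 of the 10 and 13.5% of all genes tested were called lower. Egr3 was then at -1.37 (adjusted p = 0.0580 by edgeR) and was the 1 gene with an unadjusted p under 0.05. Junb was at -0.55 (adjusted p = 0.359 by edgeR) and Nr4a1 at -1.14 (0.184). The 3 comparisons share their samples, so their values stand side by side and are not independent of each other.

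Run was examined by repeating each comparison among the earlier runs and by adding run to the fit. Within the earlier runs (8 Myc against 2 vector lymphomas), all 10 log2 fold changes were below 0 with a median of -2.28, and 4 genes were called, where 4.40% of all genes tested were called lower. The 4 were Junb (adjusted p = 0.0354 by edgeR), Jund (0.0343), Egr1 (0.00789) and Egr2 (0.00896), with Egr1 at -3.10 and Egr2 at -2.33. In the fit of all runs with 1 library left out in turn, the adjusted p of the 10 genes by edgeR stayed between 1.41e-06 (Egr2) and 0.0110 (Fos), all 10 called each time. With run as a term over all 20 samples, 7 genes were called, where 9.77% of all genes tested were called lower. Fos (adjusted p = 0.0709 by edgeR), Fosb (0.0703) and Egr3 (0.0718) did not pass, at log2 fold changes of -2.48, -3.36 and -1.60. The 2 earlier vector lymphomas differed widely, with Fos at 429.6 CPM in replicate 7 and 2276 CPM in replicate 8.

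For vector lymphomas against normal cells, edgeR called 0 of the 10 genes within the earlier runs (3 normal and 2 vector samples), where 0.621% of all genes tested were called higher. An unadjusted p was under 0.05 for 2 of them. The median log2 fold change there was 1.14, and 9 of the 10 were above 0. With run as a term, Egr2 was called (2.16 ± 0.55, adjusted p = 0.0203 by edgeR), where 4.86% of all genes tested were called higher. For Myc lymphomas against normal cells, Egr3 and Nr4a1 were called within the earlier runs, where 7.97% of all genes tested were called lower. The 6 later vector lymphomas were also set against the 2 earlier ones, in fits of all samples. EdgeR and DESeq2 each called 0 of the 10 genes, with 0 at an unadjusted p under 0.05. Of all genes tested, edgeR called 4.48% lower and 0.471% higher, and DESeq2 called 6.03% lower and 3.78% higher. The log2 fold changes were above 0 in the later runs for 9 of the 10, from 0.26 ± 0.65 (Junb) to 1.01 ± 1.56 (Fosb), with Nr4a1 at -0.11 ± 0.90. With 1 library left out, the value for Fosb ran from 0.05 to 5.01. With 6 against 2 samples these values do not show that the runs were alike. Mitochondrially encoded transcripts summed to 3114 to 7845 CPM in the later and 62481 to 78102 CPM in the earlier vector lymphomas. For the 10 genes, vector replicates 7 and 8, which share a set of runs and a title prefix, stood at opposite sides of the group.

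**Figure D3:**
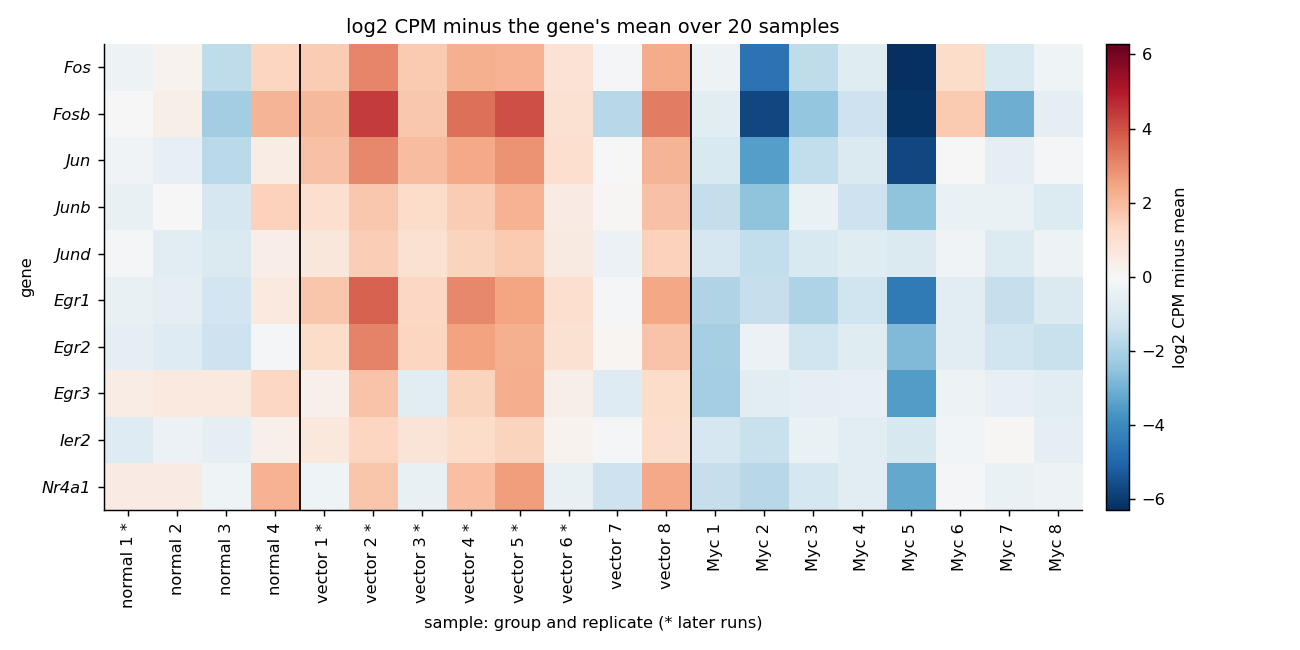
Log2 CPM of each gene (rows) in each sample (columns, asterisk for later runs) minus the gene's mean over the 20 samples, red for higher and blue for lower. Vector replicates 2, 4, 5 and 8 are red in all 10 rows, and Myc replicate 5 is darkest blue for Fos, Fosb and Jun.

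The same samples were high or low for nearly the whole set. Vector replicates 2, 4, 5 and 8 were among the 5 highest of the 20 samples for all 10 genes, and replicates 2 and 5 each held the highest value for 5 of them. Vector replicate 7 was the lowest vector lymphoma for 10 of 10 genes. Its level was 0.15 (Fosb) to 0.91 (Egr3) times that of the next lowest vector lymphoma. Normal replicate 4 was the highest normal sample for 10 of 10, at 1.42 (Egr2) to 3.41 (Fosb) times the next highest, and normal replicate 3 was the lowest for 8. Among the Myc lymphomas, replicate 6 was the highest for 8 genes. Myc replicate 5 was the lowest of all 20 samples for 7 genes and Myc replicate 2 for the remaining 3 (Junb, Jund and Ier2). The lowest count behind these levels was 44, for Egr3 in Myc replicate 5, and Fos held 134 counts in that library.

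The set varied more within groups than most genes did. The SD of log2 CPM was above the median over all genes tested for 10 of 10 genes in normal cells (members' median 0.83, all genes 0.28). The same held for 10 of 10 in vector lymphomas (0.98 against 0.45) and 8 of 10 in Myc lymphomas (1.07 against 0.68). In the Myc lymphomas the exceptions were Jund (0.42) and Ier2 (0.49), the genes with the narrowest range there. Fosb had the widest in all 3 groups, at 1.76, 2.01 and 2.64.

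Levels can be ordered between genes per kilobase of exon. In normal cells the median order was Fos (189 CPM per kilobase), Jund (182), Junb (133), Jun (95.3), Ier2 (59.3), Nr4a1 (40.1), Fosb (31.4), Egr1 (16.4), Egr3 (7.39) and Egr2 (5.69). Fos and Jund, and Jund and Junb, kept that order in 2 of 4 normal samples, so these neighbours did not differ beyond their spread. In vector lymphomas the median levels per kilobase were Fos 731, Jund 549, Jun 501, Junb 411, Fosb 185, Ier2 162, Egr1 102, Nr4a1 59.6, Egr2 27.5 and Egr3 8.49. Jund and Jun, and Fosb and Ier2, kept their order in 4 of 8 vector lymphomas. In Myc lymphomas Jund led, at 129 CPM per kilobase, above Fos (104) in 6 of 8 samples, and Egr2 (3.80) and Egr3 (3.20) were last. Fosb was in the fifth place in vector lymphomas and in the eighth in Myc lymphomas (8.24 CPM per kilobase).

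**Figure D4:**
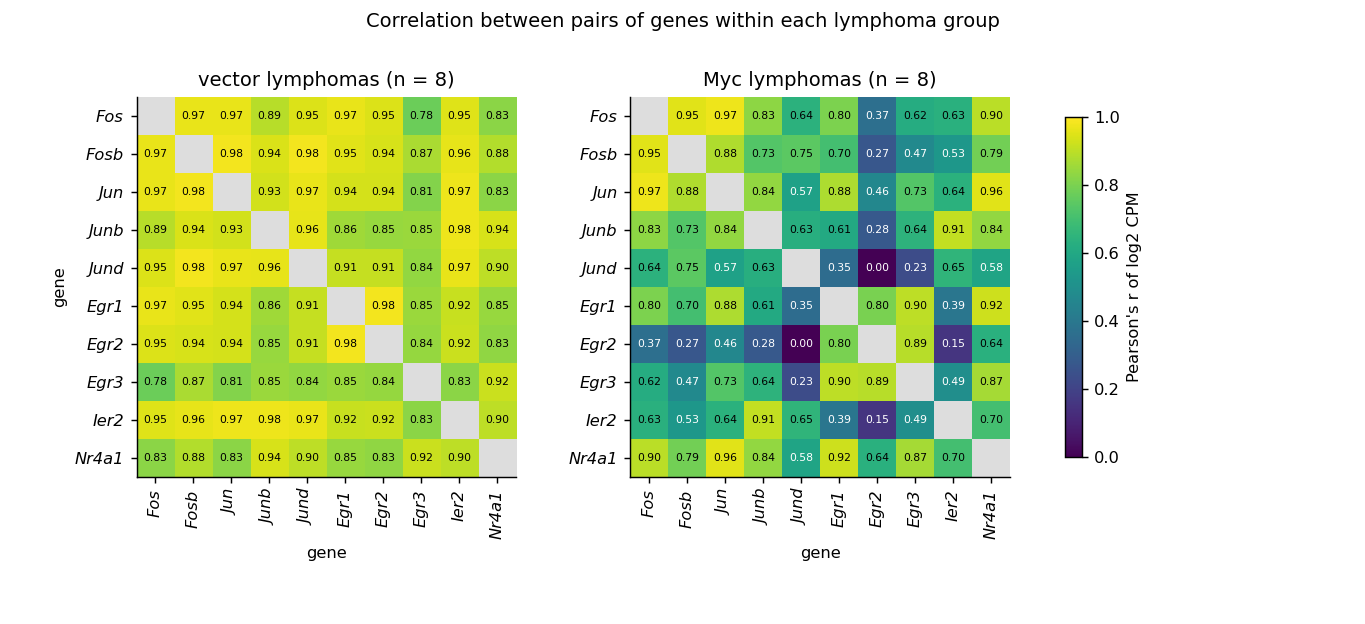
Pearson's r of log2 CPM for each of the 45 pairs of genes over the 8 vector lymphomas (left) and the 8 Myc lymphomas (right), on a colour scale from 0 to 1. All vector pairs are at 0.78 or above, whereas Myc pairs reach from 0.003 (Jund and Egr2) to 0.97 (Fos and Jun).

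Within the vector lymphomas the genes moved together from sample to sample. All 45 pairs had an r above 0, from 0.78 (Fos and Egr3) to 0.98 (Fosb and Jun), with a median of 0.92. Spearman's rho ran from 0.74 to 0.98. All 45 passed an exact two-sided permutation test of r, adjusted over the 45 pairs, and all 45 passed for rho. Leaving out the 2 samples farthest from the median gave r from 0.57 to 0.98. Over the 6 later-run vector lymphomas alone, r ran from 0.66 to 0.99 with a median of 0.91.

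Within the Myc lymphomas the 45 pairs had a median r of 0.65, and 10 pairs passed the exact permutation test of r after adjustment (5 by rho). Fos and Jun (r = 0.97, exact permutation p = 3.47e-04, adjusted 0.0067; rho = 0.90), Fos and Fosb (r = 0.95, adjusted p = 0.0067 by exact permutation) and Jun and Nr4a1 (r = 0.96, adjusted p = 0.0067 by exact permutation) were the closest. Egr2 was tied most closely to Egr3 (r = 0.89, adjusted p = 0.0324 by exact permutation) and had a median r of 0.37 with the other genes. Jund passed with no other gene (median r 0.58). Without Myc replicate 5, the lowest sample for 7 of the genes, r ran from -0.40 to 0.96 with a median of 0.59. Leaving out the 2 samples farthest from the median of the gene on the x axis gave -0.18 to 0.93, with a median of 0.46, so part of the Myc relations rests on those samples. The difference in r between the lymphoma groups was not tested.

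Genes outside the set whose deviations from the group means followed each member most closely were found over the 20 samples and 16735 genes, as a description with no p. The points share libraries and scaling. Dusp1, a phosphatase that inactivates MAP kinases, was among the 3 closest to Fos (r = 0.96), Fosb (0.94) and Junb (0.89). Jun was followed by Slc25a25 (0.92) and Pmaip1 (0.92), and Jund by Atf3 (0.92), Klf2 (0.91) and Klf4 (0.89). Egr1 was followed by Socs3 (0.94), Klf6 (0.92) and Dusp4 (0.91), and Egr2 by Dusp6 (0.87) beside Egr1 and Egr3. Egr3 was followed by its fellow early gene Nr4a3 (0.93), Kdm6b (0.93) and Notch1 (0.90). Pim3 and Klf2 followed Ier2 (0.89 and 0.86), and Klf11 followed Fosb (0.93). Nfkbiz (0.93), Myc (0.93) and Bhlhe40 (0.93) followed Nr4a1. The 99th percentile of r over all genes compared was 0.63 (Ier2) to 0.80 (Jun).

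Of 25 other immediate-early genes, 23 fell and 0 rose in Myc against vector lymphomas, with a median log2 fold change of -1.87 beside 0.08 for all genes tested. Of all genes tested, 21.9% were called lower and 26.6% higher. Among the 23 were Arc (-2.67 ± 0.30, adjusted p by edgeR 9.1e-07), Rgs2, an inhibitor of G protein signalling (-2.29 ± 0.28), and Irf1, an interferon-response factor (-1.44 ± 0.18). Of the 25, 11 fell within the earlier runs, Arc, Rgs2 and Irf1 among them, where 4.40% of all genes tested were called lower. Against normal cells, 3 of the 25 were higher in vector lymphomas (Gadd45b at 2.16 ± 0.33, Rhob at 2.27 ± 0.61 and Arc at 1.23 ± 0.36), where 7.46% of all genes tested were called higher. In Myc lymphomas against normal cells 10 of 25 were lower, where 17.9% of all genes tested were called lower. None of the calls in vector lymphomas held within the earlier runs, where edgeR called 0 of the 25 higher (2 at an unadjusted p under 0.05), and Arc stood at -0.15. With run as a term Gadd45b (2.30, adjusted p by edgeR 7.91e-04) and Rhob (2.47, adjusted p 0.0383) passed. Arc did not (0.47, adjusted p by edgeR 0.538).

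The closer relatives were examined as lists of their own. Of 13 other AP-1 family genes, 4 fell in Myc against vector lymphomas and 0 rose (median -0.54), a share near the 21.9% of all genes tested that were called lower. Within the earlier runs edgeR called 0 of the 13 (2 lower at an unadjusted p under 0.05), with a median of -0.53. Among them were the small Maf genes Maff (-3.15 ± 0.59, adjusted p by edgeR 2.35e-04) and Mafk (-1.12 ± 0.29; -0.19 within the earlier runs), and Atf3 (-2.32 ± 0.90), of which Maff and Atf3 are also on the early gene list. Batf, Atf2 and Fosl2 did not pass. Of 8 other Egr, Nr4a, Ier and Nab genes tested, 4 fell: Ier5 (-1.84 ± 0.22), Ier5l (-2.57 ± 0.41), the Egr corepressor Nab2 (-1.47 ± 0.18) and Nr4a3 (-1.04 ± 0.37). The first 3 of these were also called within the earlier runs, where 4.40% of all genes tested were called lower. Nab1 (-0.08 ± 0.17) and Nr4a2 (-0.69 ± 0.63) did not pass, and Wt1 was too low to be tested. Against normal cells, Ier5l (1.93 ± 0.51) and Egr4 (3.33 ± 0.99, at a mean of 0.346 CPM over all samples) were higher in vector lymphomas. In that comparison 7.46% of all genes tested were called higher. EdgeR called 0 of the 8 higher within the earlier runs (2 at an unadjusted p under 0.05), and with run as a term neither passed (adjusted p by edgeR 0.0606 and 0.0792).

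**Figure D5:**
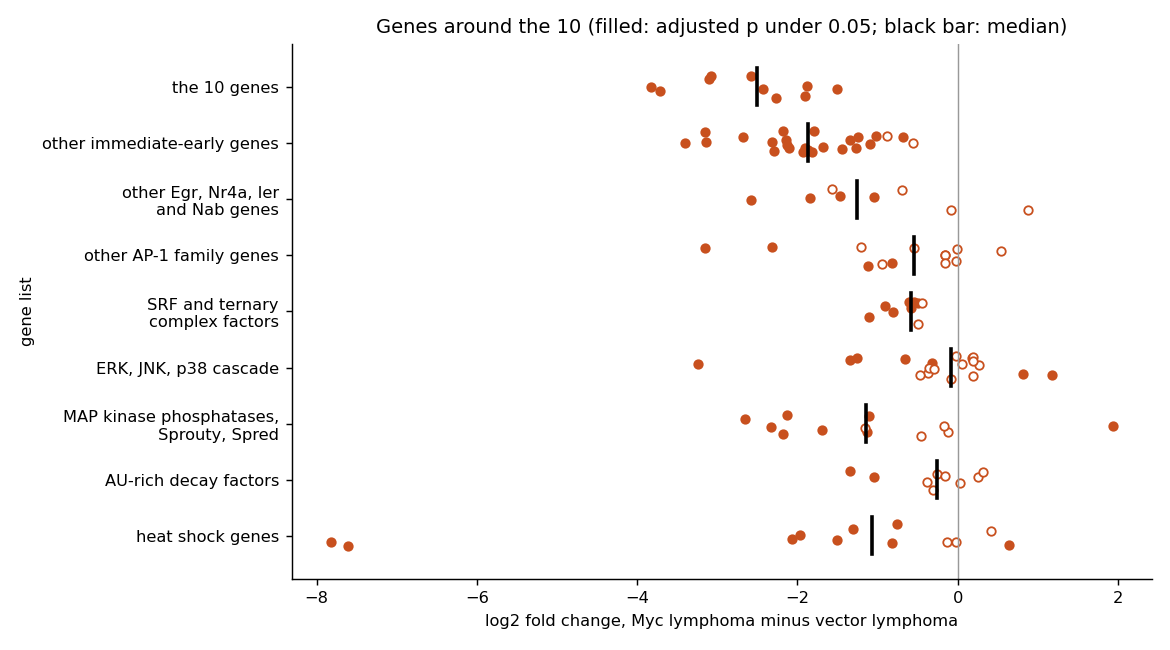
Log2 fold change of Myc against vector lymphoma for each gene tested (points, filled where the adjusted p is under 0.05) in the set of 10 and in 8 lists around it, with a black bar at each list's median. The set's median of -2.50 is the lowest, and the heat shock list holds the lowest genes, Hspa1a (-7.82) and Hspa1b.

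Among the regulators upstream of Fos and Egr1, 7 of 9 serum response factor, ternary complex factor and CREB genes fell in Myc against vector lymphomas (median -0.58). Elk3 (-1.10 ± 0.15), Elk1 (-0.81 ± 0.11) and the CREB coactivator Crtc2 (-0.55 ± 0.13) had the smallest p, and Srf itself was at -0.50 ± 0.17 (adjusted p by edgeR 0.0207). Among the earlier runs 2 of the 9 fell, Elk3 and Elk1, where 4.40% of all genes tested were called lower. The list's median was -0.29 in those runs. Srf was at 0.06 there (adjusted p by edgeR 0.924) and at -0.07 with run as a term (adjusted p 0.86). Of 19 ERK, JNK and p38 cascade genes, 5 fell and 2 rose, with a median of -0.08. Of all genes tested, 21.9% were called lower and 26.6% higher, so the share of the cascade that fell was near that of all genes. Rasgrp3, which links the B cell receptor to Ras, was at 177 CPM in vector and 18.8 CPM in Myc lymphomas on average (-3.23 ± 0.32). Map2k1, the kinase that phosphorylates ERK, fell by 1.35 on the log2 scale. The 2 that rose, named after their values were seen, were Hras (1.18 ± 0.29) and Rps6ka1 (0.82 ± 0.15). Rasgrp3 and Map2k1 also fell within the earlier runs, where edgeR called 0 of the 19 higher (1 at an unadjusted p under 0.05).

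Feedback inhibitors of the cascade gave 7 that fell and 1 that rose of 12 (median -1.15). Of all genes tested, 21.9% were called lower and 26.6% higher. Dusp1 is on this list and also on the list of other immediate-early genes. Dusp6, an ERK phosphatase, was at 76.3 CPM in normal, 79.5 CPM in vector and 12.6 CPM in Myc lymphomas on average, a log2 fold change of -2.65 ± 0.24 for Myc against vector (adjusted p by edgeR 6.71e-08). Dusp10 (-2.18 ± 0.22) and Dusp2 (-1.13 ± 0.17) also fell, and Spry2, named after its value was seen, rose (1.94 ± 0.38). Among the earlier runs 3 of the 12 fell and edgeR called 0 higher (1 at an unadjusted p under 0.05). There 4.40% of all genes tested were called lower and 2.97% higher. Of 9 genes for decay of AU-rich messengers, 2 fell, a share near that of all genes tested, and edgeR called 0 within the earlier runs (1 lower at an unadjusted p under 0.05). The 2 were Zfp36 (-1.35 ± 0.30), itself an early gene, and Zfp36l1 (-1.05 ± 0.27).

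Of 12 heat shock genes, 8 fell and 1 rose in Myc against vector lymphomas, with Hspa1a at -7.82 ± 0.77. Of all genes tested, 21.9% were called lower and 26.6% higher. Within the earlier runs 2 of the 12 fell, and edgeR called 0 higher (1 at an unadjusted p under 0.05). The list's median there was -0.28 against -1.06 over all runs, and 4.40% of all genes tested were called lower and 2.97% higher. The inducible chaperone Hspa1a stood at 242, 459, 1161, 834, 1312, 1028, 245 and 19.2 CPM in vector replicates 1 to 8, at 15.6 to 25.3 CPM in normal cells and at 0.399 to 6.40 CPM in Myc lymphomas. Vector replicate 8, which was among the highest for all 10 early genes, held Hspa1a at the normal level. From sample to sample over the 8 vector lymphomas, r of each of the 10 genes with Hspa1a lay between -0.18 and 0.12 and rho between -0.10 and 0.33. The lowest exact permutation p was 0.758 for r and 0.428 for rho (adjusted over the 10 genes, 0.997 and 0.935). Without the 2 samples farthest from the median of Hspa1a, r was 0.28 to 0.60. This relation was examined after the values were seen. Whether handling or dissociation had a part in the levels of the 10 genes was not tested.

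Markers of cell types were counted in the same comparison, in which 26.6% of all genes tested were called higher (2.97% within the earlier runs). In Myc against vector lymphomas 9 of 10 B cell markers fell, where 21.9% of all genes tested were called lower. Within the earlier runs 5 fell, where 4.40% of all genes tested were called lower. Of 10 neutrophil markers 6 rose, and their sum was 57.0 to 5899 CPM in vector and 1663 to 16586 CPM in Myc lymphomas. Within the earlier runs edgeR called 0 of the 10 neutrophil markers (1 lower at an unadjusted p under 0.05), with a median log2 fold change of 0.78 against 2.48 over all runs. The 2 earlier vector lymphomas held neutrophil sums of 1695 and 5899 CPM. Of 8 NK markers 7 rose (50.6 to 89.9 CPM in vector, 171 to 642 CPM in Myc lymphomas), and of 10 erythroid markers 3 rose (3763 to 19833 CPM in vector, 5984 to 85969 CPM in Myc lymphomas), a share near that of all genes. Among these, 3 NK and 1 erythroid marker rose within the earlier runs. Myc replicate 5, the lowest sample for 7 of the 10 early genes, had the highest erythroid, NK, B cell, macrophage and plasmacytoid dendritic sums of its group. Vector replicate 7, the lowest vector lymphoma for all 10, had the highest B cell (10302 CPM), NK (89.9 CPM) and mitochondrially encoded (78102 CPM) sums of its group. Its erythroid, plasmacytoid dendritic and platelet sums were the lowest of its group. Of the markers on these lists, 0 were at a count of 0 in all samples of a group. Their part in the differences of the 10 genes was not tested. Without normal replicate 4 and Myc replicate 5 together, 10 of 10 genes were still called lower in Myc against vector lymphomas, with 22.5% of all genes called lower.

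Of the 10 genes, 3 share exon bases with a gene on the opposite strand in GENCODE vM21: Jun with Junos (232 bases), Junb with Prdx2 (173 bases) and Jund with Gm11175 (877 bases). The labels do not state whether counting used strand, so reads from these bases may have been left out as ambiguous or counted to either gene.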

How the data were processed

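The deposited table holds raw read counts per Ensembl gene, with 1 column for each of the 20 samples, per the file header, and the authors applied no scaling to these counts that the labels record. Poly-adenylated RNA was fragmented with RNase III and sequenced on Ion Proton instruments after PCR, per the labels' protocols. Alignment and counting tools in the submitters' processing notes are BWA 0.7.5a, HTSeq and Picard 1.119, and the builds there are NCBIM37 and mm9; no role is stated for any of them. Of all reads, 37.1 to 57.0% were counted to genes, and the 5 lines for other reads stayed out of library sizes. Names and exon lengths came from GENCODE vM21 and promoters from RefSeq (GRCm38.p6).

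Genes were filtered with filterByExpr by group, scaled by TMM and compared by the quasi-likelihood F test of edgeR 4.0.16 in 1 fit of all 20 samples, with calls at a Benjamini-Hochberg adjusted p under 0.05 over all 17824 genes. DESeq2 1.42.0 was an alternative, with other scalings, filters and sample sets. Log2 CPM used a prior count of 2. Pairs were tested by exact permutation over all orders of 8 samples. The scripts were tested on simulated data.

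The members and lists were chosen with earlier results of these data known. Named genes are the 10 members, up to 3 called genes with the smallest p of each list in Myc against vector lymphomas and up to 2 in vector lymphomas against normal, and the 3 genes most like each member, leaving out genes with no name, Xist, Y-linked and antigen receptor genes. Other list genes were named after their values were seen, and some genes that the rule selects are not reported here. Of the list genes, Atf7 was not found. In Myc against vector lymphomas, 26.6% of all genes tested were called higher and 21.9% lower (2.97% and 4.40% within the earlier runs). The remaining marker lists gave, in Myc against vector lymphomas, 3 higher and 2 lower of 10 T cell, 1 and 1 of 10 macrophage, 6 and 1 of 8 plasmacytoid dendritic, 1 and 4 of 8 conventional dendritic, 2 and 1 of 8 platelet, 2 and 1 of 10 stromal, 0 and 5 of 8 plasma cell and 13 and 0 of 13 mitochondrially encoded genes. Within the earlier runs these counts were, in the same order, 1 and 0, 0 and 1, 3 and 0, 0 and 2, 0 and 0, 0 and 0, 0 and 1, and 0 and 0 by edgeR; for the platelet and stromal lists 1 higher and 1 lower, and for the mitochondrial list 0, had an unadjusted p under 0.05.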

Additional observations from a re-analysis of the deposited data

Results flagged for a closer look

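Egr1 in the Myc lymphomas had 1 sample far below the others. Replicate 5 held 4.95 CPM, and the other 7 Myc lymphomas held 28.0 to 67.2 CPM. The gap to the next sample was 0.66 of the group's whole range on the log2 scale, against a limit of 0.526 for 8 samples. This was 1 of 30 combinations of gene and group examined, and chance alone marks about 1 in 20. Egr1 remained lower in Myc than in vector lymphomas without that library, with a log2 fold change of -3.64 and an adjusted p of 3.72e-06 by edgeR.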

How the results depend on the processing

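In Myc against vector lymphomas, 10 of 10 genes were called lower (10 to 10) under DESeq2, other scalings, other filters, without mitochondrially encoded genes and with any 1 library left out. DESeq2 called 23.8% of all genes tested lower. For the 10 genes the count was 4 within the earlier runs (4.40% of all genes tested) and 7 with run as a term (9.77%). It was also 7 for the earlier runs in a fit with a separate level for each combination of group and run set (7.71%). The within-run comparison and this fit of combinations rest on the same 2 earlier vector samples. In vector lymphomas against normal, the count called higher by edgeR was 0 within the earlier runs and 1 with run as a term. It was 0 for the earlier runs in the fit of combinations. Of all genes tested, these settings called 0.621%, 4.86% and 1.60% higher. In the same order, 2, 5 and 3 genes had an unadjusted p under 0.05. The later runs hold 1 normal sample, so no count is given for them. The count called higher was 2 to 5 with 1 library left out. In Myc lymphomas against normal, the count called lower with 1 library left out ran from 0 to 4. It was 0 without normal replicate 4 (13.5% of all genes tested called lower) and 4 without Myc replicate 6, where Fosb was gained. Without normal replicate 4 and Myc replicate 5 together, a set chosen after the data were seen, edgeR called 0 of the 10 genes lower. There 1 of the 10 had an unadjusted p under 0.05, and 16.6% of all genes tested were called lower. Some uncalled values changed sign. Egr3 in vector lymphomas against normal was -0.37 within the earlier runs and -0.40 for the earlier runs in the fit of combinations. It was -0.0018 to 0.56 with 1 library left out. Without the 2 named libraries, Fos (0.0062) and Ier2 (0.060) in Myc lymphomas against normal lay above 0. Between later and earlier vector lymphomas, log2 fold changes with 1 library left out ran from -0.24 to 2.17 (Fos), -0.36 to 1.40 (Junb), -0.24 to 1.55 (Jund), -0.13 to 1.05 (Ier2) and -1.002 to 2.67 (Nr4a1). The cause was not tested. No paired analysis was possible because the labels give no replicate numbers that tie samples of different groups, and the numbers used here follow the order of the samples. Depth set no floor for these genes, whose lowest count in any library was 44 (Egr3).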
